A study of Canis lupus familiaris with 20 samples.

Results

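The genes described here are the 200 dog genes with the highest level in exosome libraries among all genes that had no read at all in the cell libraries. Members were taken from the genes with a count of 0 in each of 8 cell libraries, and of those the 200 with the highest median CPM (counts scaled to a fixed library total) over 12 exosome libraries were kept. There were 5768 genes without a cell count among 24579 in the table, so the 200 members are a small upper part of that group. The values that chose them, their zeros in cells and their median level in exosomes, are given below as a description and carry no test.

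Exosomes are small membrane vesicles that cells release, and they carry proteins and RNA of the cell of origin. RNA in vesicles taken from culture medium is scarce and often fragmented, and vesicle preparations made by precipitation can also bring down nucleic acid that lies outside vesicles. Osteosarcoma is a malignant bone tumour that is common in large dogs, and RNA in vesicles is studied as a marker of the disease that can be read from body fluid.

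The study sequenced RNA from cultured dog osteosarcoma cell lines and from exosomes of their supernatants. The cell libraries came from OSCA-8, OSCA-78, OS-1 and OS-2, with 2 per line. Exosome libraries numbered 4 for OS-1 and 2 for every other line, which were OSCA-8, OSCA-78, OSCA-32 and OS-2, and OSCA-32 had no cell library. No treatment is given for any line, and each group stands for 1 line. The labels give 1 protocol for all libraries, naming precipitation by ExoQuick and the SeraMir ExoRNA Amp kit, and do not say how preparation differed for cells. Effects of preparation therefore cannot be told apart from those of the fraction. Nothing states that replicates came from separate cultures, and the p-values below therefore measure the spread between libraries, which may be technical.

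Total counts ran from 7728553 to 13301840 in cell libraries and from 259078 to 481487 in exosome libraries. The exosome libraries themselves were of unequal kinds. The 7 genes that exceeded 1% of any exosome library, none of them a member, took 55.6% and 60.9% of the OS-2 libraries. They took 13.7% to 27.4% of OS-1 replicates 1 and 2, OSCA-78 replicate 2 and both OSCA-8 libraries. They took 0.750% to 1.90% of OSCA-78 replicate 3, the pair of OSCA-32 libraries and replicates 3 and 4 of OS-1. Lines OS-1 and OSCA-78 thus had libraries of both the middle and the low kind. The files give Ensembl identifiers without names, and a RefSeq gene table held 0 of the 24579. Genes of known function, gene classes and markers of cell types could therefore not be looked up among the members, and 4 members are given by identifier.

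In cells, the zeros of the members rest on 91592873 pooled counts. Taking 3 counts as the limit that a count of 0 allows, a member could stand at up to 0.0328 CPM in the pooled cells. In exosomes the median over 12 libraries ran from 42.6 to 191 CPM over the members. Against the pooled cell limit the members were therefore at least 1299.6-fold to at least 5846-fold higher in exosomes, with 1810-fold as the median of these bounds. These folds follow from how the members were chosen. Intervals and limits cover counting error only.

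The levels of the members fell off smoothly, with no step at the limit of the list. The highest member stood at a median of 191.5 CPM, the member ranked 50 at 78.8, that ranked 100 at 59.9 and that ranked 150 at 50.3 CPM. The last 2 members inside the limit stood at 42.59 and 42.57 CPM, and the first 2 genes outside it at 42.56 and 42.45 CPM. Of the 5768 genes without a cell count, 3355 had a median exosome CPM above 0 and 411 had no exosome count either.

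Members were neither among the most abundant exosome genes nor near the bottom. They ranked from 179 to 6542 among all genes by median exosome CPM, with a median rank of 4065.5, and 6342 genes with a cell count stood at or above the lowest member. Counts per member over the 12 exosome libraries ran from 170 to 1058, with a median of 286.5.

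Members were seen in nearly every exosome library. A set of 189 members had a count in all 12 libraries, 9 in 11 libraries and 2 in 10 libraries. The zeros lay in 2 lines, with 2 members at 0 in OS-2 replicate 1, 9 in OS-2 replicate 2 and 1 in each OSCA-78 library. In OS-2 the median count per member was 6 and 4, and 33 and 74 members stood at 3 counts or fewer in replicates 1 and 2. In the other libraries the median count per member was 15 to 38.5. A single member was at 0 in both OS-2 libraries, where 3 counts over both correspond to 3.21 CPM. It was at least 8.92-fold lower there than in the line with the lowest mean among the others (28.6 CPM).

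Summed over the 200 members, the share of the library was lowest in OS-2 and highest where few genes dominated. In OS-1 the members took 1.33% of the counts in replicate 1 (Clopper-Pearson 95% interval 1.29% to 1.37%), 1.47% in replicate 2 (1.43% to 1.51%), 1.90% in replicate 3 (1.86% to 1.94%) and 1.97% in replicate 4 (1.93% to 2.02%). In OS-2 they took 0.297% (0.282% to 0.313%) and 0.232% (0.218% to 0.246%). These were the lowest of the 12 libraries, and their intervals did not meet that of any other library.

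OSCA-32 exosomes held 1.97% (1.93% to 2.01%) and 1.95% (1.91% to 1.99%) of their counts in members. OSCA-78 exosomes held 1.30% (1.26% to 1.34%) in replicate 2 and 1.81% (1.77% to 1.85%) in replicate 3. OSCA-8 exosomes held 1.02% (0.993% to 1.06%) and 1.25% (1.22% to 1.29%). Replicates of OS-1 and of OSCA-78 differed by more than counting error, and in both lines the libraries with the lower share were those with more counts in the dominant genes.

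**Figure D1:**
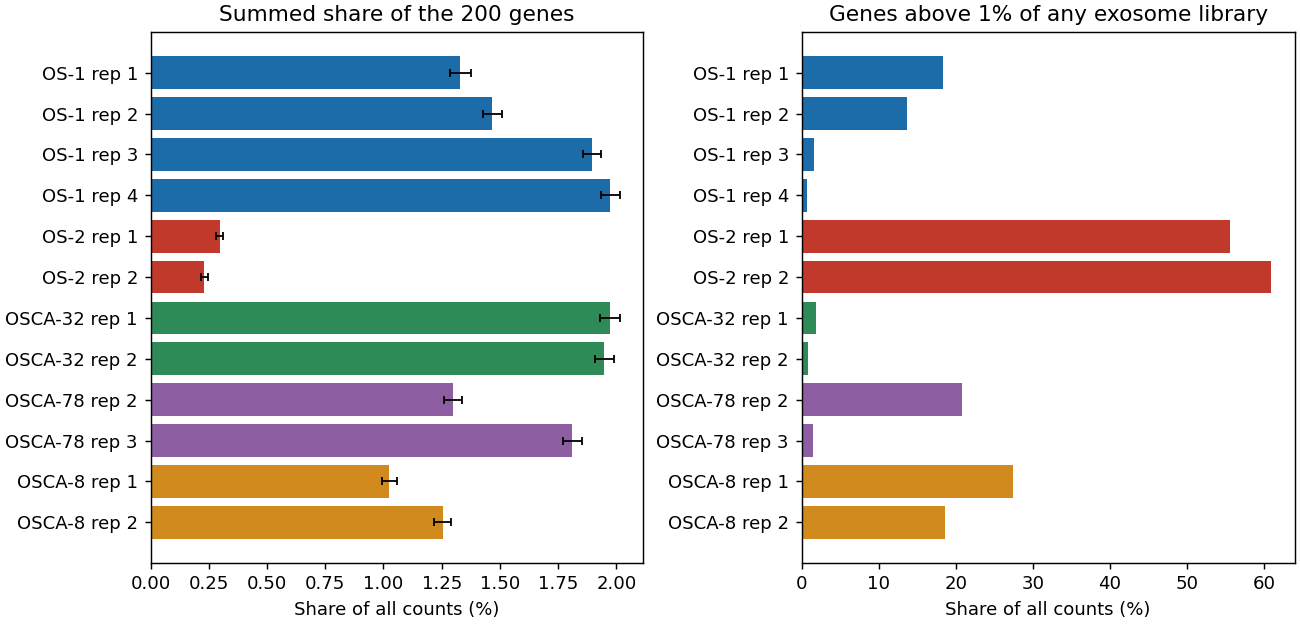
Left, the summed share of the 200 genes in each exosome library as a percentage of all counts, with Clopper-Pearson 95% intervals as error bars. Right, the share of the 7 genes that exceeded 1% of any exosome library, where the OS-2 libraries reach 55.6% and 60.9% and 5 libraries stay under 2%, and colours mark lines.

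By line, the share was 1.67 ± 0.316% in OS-1 (SD, n = 4), 0.264 ± 0.0464% in OS-2 (n = 2), 1.96 ± 0.0155% in OSCA-32 (n = 2), 1.55 ± 0.363% in OSCA-78 (n = 2) and 1.14 ± 0.162% in OSCA-8 (n = 2). Without the 7 dominant genes in the denominator, the share became 0.670% and 0.592% in OS-2 and 1.41% to 2.01% in the other libraries. The OS-2 libraries thus remained the lowest with those genes set aside, though the gap to the others narrowed.

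Members moved together with the other genes that had no cell count. All 5768 such genes took 1.10% and 1.37% of the OS-2 libraries and 3.87% to 7.33% of the others. Within that total, the members made up 25.2% to 28.4% in the 10 libraries outside OS-2. In OS-2 they made up 21.7% and 21.0%. The fifth of genes that were scarcest in cells, among those with a cell count, took 2.86% and 2.0% of OS-2 and 8.13% to 10.6% of the others. The fifth most abundant in cells went the other way, with 64.7% and 58.8% in OS-2 and 29.9% to 44.6% in the others. The library shares of scarce and abundant cell genes keep the 7 dominant genes in the counts. Those genes alone took 55.6% and 60.9% of the OS-2 libraries. The shares were not taken without them, so whether the other abundant cell genes also rose in OS-2 was not tested. In shares of total counts, members had the low position of scarce cell genes in OS-2. Whether the members' own part in it differs was not tested.

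The shift in OS-2 reached most members. In 184 of 200 members both OS-2 libraries lay below all 10 other exosome libraries in CPM, or 92% of the members. Among all genes with an exosome count the same held for 36.6%, and among the genes at or above the lowest member it held for 70.6%. With CPM taken without the 7 dominant genes the count was 128 members, beside 16.7% and 34.8% of those gene sets. These counts are a description, since a high median taken mostly over libraries outside OS-2 favours genes that are lower in OS-2. A median level per library shows the same order. The median member stood at 12.5 and 8.82 CPM in OS-2, at 46.0 and 57.5 CPM in OSCA-8, and at 81.7 and 85.2 CPM in OSCA-32.

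**Figure D2:**
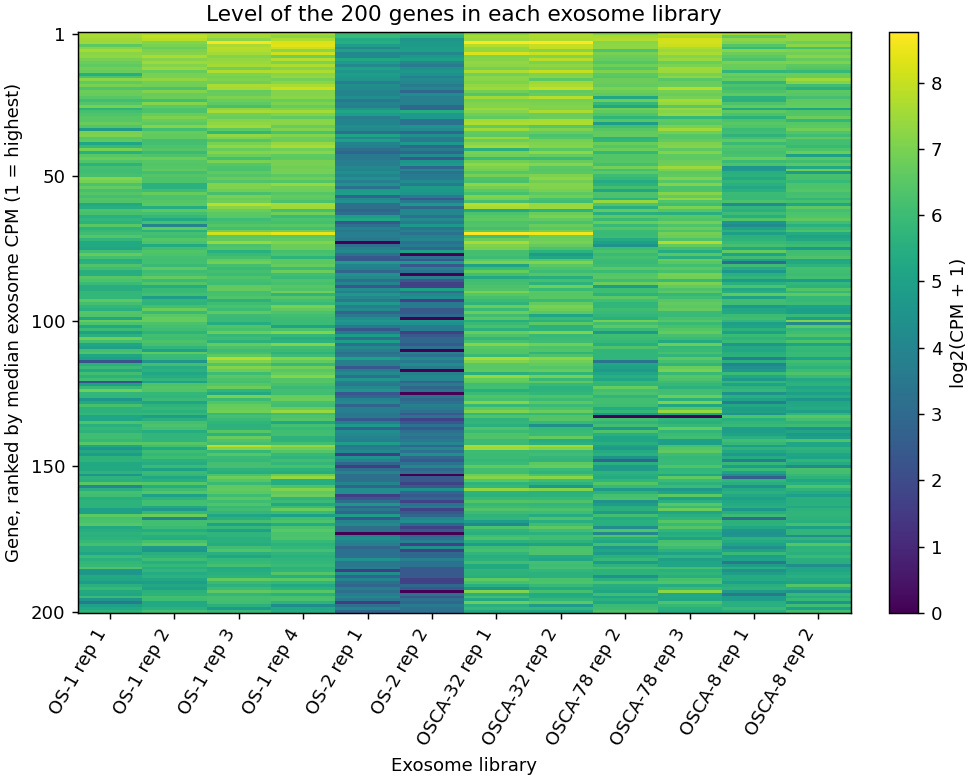
Level of each of the 200 genes (rows, ranked by median exosome CPM) in each exosome library (columns), as log2(CPM + 1). Both OS-2 columns are lower over nearly all rows, and the row at rank 133 is dark in both OSCA-78 columns, where its count was 0.

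The variation of each member was set against the library totals and against the members' own sum. For each member, the chi-square per degree of freedom over the 12 libraries was taken, a measure that is near 1 when counts vary by counting error alone. Against library totals its median was 7.51, and 200 of 200 members were above 2. Against the summed counts of the members the median fell to 2.45, with a range of 0.390 to 24.5, and 127 members were above 2. The 6342 other genes at or above the lowest member level had a median of 6.66 against library totals. Most of the gap between the measures came with OS-2. Over the 10 libraries without OS-2 the members' median was 2.65 against their own sum and 3.12 against library totals, and that of the other 6342 genes was 3.23 against library totals.

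By the medians below, the order of members by level was more alike within a kind of library than within a line. Spearman's rho over the 200 members between 2 libraries is given here as a description across genes, which are not independent replicates. Between libraries of different lines but the same kind (low or middle share of dominant genes, OS-2 aside) rho had a median of 0.59 over 16 pairs. Between libraries of the same line but different kinds its median was 0.37 over 5 pairs. The ranges, 0.35 to 0.78 and 0.27 to 0.45, overlapped. With pairs of the same line included, rho was 0.617 to 0.828 within the low kind and 0.350 to 0.625 within the middle kind. The middle kind thus overlapped the pairs of the same line but different kinds, and the low kind did not. Near the ends of these ranges, OS-1 replicate 4, of the low kind, had a rho of 0.78 with both OSCA-32 libraries and of 0.28 with OS-1 replicate 1.

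Pairs of the same line and kind stood highest, with a median rho of 0.70 over 4 pairs, and pairs that shared neither stood at 0.30 over 20 pairs. The order of these medians was the same among the 6342 other genes at or above the lowest member level, at 0.65, 0.42, 0.74 and 0.35. Libraries of the middle kind had 3445 to 5212 counts of members and those of the low kind 7383 to 9069, and the part of these counts in the pattern was not tested.

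Within lines, the spread of the members was close to that of other tested genes. In edgeR's fit of the 12 exosome libraries the dispersion, the squared coefficient of variation beyond counting error, had a median of 0.0600 over the members and a range of 0.0389 to 0.390. Over all 15083 genes tested the median was 0.0836. The 1018 tested genes without a cell count that were not members had a median of 0.146, at lower counts. All 200 members passed the filter on low counts, as their choice by exosome level made likely.

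Differences between lines were tested on the whole table. The choice of members did not leave them free, since a high median over 12 libraries, 10 of them outside OS-2, favours genes that are lower in OS-2 than elsewhere. The counts and medians for the lines are therefore a description. By edgeR's quasi-likelihood test, 38 of 200 members differed between the exosomes of the 5 lines at a Benjamini-Hochberg adjusted p under 0.05. This is 19% of the members, beside 15.1% of all 15083 genes tested, a share near the background. Among the 6542 genes at or above the lowest member level, members included, it was 20.3%, a comparison added after seeing the data. Of the 38, 35 had their lowest line mean CPM in OS-2 and 28 their highest in OSCA-32. Of all 200 members, 197 had their lowest line mean in OS-2 and 107 their highest in OSCA-32. These means are of CPM without TMM scaling, and the tally was not made over all genes. With total counts, 69.5% of all genes were called lower in OS-2 and 26.1% higher in OSCA-32. The test between lines rested on OS-2. Without that line 1 member was called, beside 0.117% of all genes, with 32 members at an unadjusted p under 0.05, or 16% of the members beside 13.8% of all genes. The count was 17 and 11 without OS-2 replicates 1 and 2, 15 and 23 without OSCA-32 replicates 1 and 2, and 23 without OSCA-8 replicate 1. The share of all genes fell too, to 7.38%, 6.84%, 10.1%, 10.5% and 11% in these fits, where the lone library of a line is assumed to vary like the other groups. With total counts in place of TMM it was 197, beside 63.1% of all genes.

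Against the mean of the other 4 lines, with TMM scaling, 39 members were lower in OS-2 and 0 higher (edgeR, adjusted p under 0.05). Over all genes tested 5.83% were lower and 13.2% higher in OS-2. The genes at or above the lowest member level had 9.43% lower and 15.1% higher. Members at an unadjusted p under 0.05 in this contrast numbered 95, or 47.5%, beside 31.6% of all genes. The median log2 difference in OS-2 was -1.0 over the members, -0.21 over all genes and -0.25 over those at or above the lowest member level. With total counts in place of TMM, 199 members were lower, beside 69.5% of all genes, and the medians were -2.64 and -1.85. Relative to all genes, the median member was 0.79 lower on the log2 scale, and this gap is nearly the same for either scaling by construction, since a factor shifts every gene of a library alike. The count was small with limma voom, which called 1 member lower, beside 0.391% of all genes. It was 16 without OS-2 replicate 1 and 5 without OS-2 replicate 2, beside 2.16% and 1.64% of all genes. The median log2 difference of the members was -0.91 with voom and -1.13 and -0.97 without these replicates.

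In OSCA-32 exosomes 20 members were higher and 0 lower than in the mean of the other lines (edgeR, adjusted p under 0.05), beside 2.55% of all genes higher and 2.9% lower. Among the genes at or above the lowest member level 3.47% were higher. The median log2 difference was 0.42 over the members and 0.07 over all genes. With total counts 111 members were higher, beside 26.1% of all genes. With the OS-2 line left out of the fit, 0 members were called in OSCA-32, beside 0% of all genes higher and 0% lower. The median log2 difference in OSCA-32 was then 0.22 over the members and 0.02 over all genes. Without OSCA-32 replicate 1 or replicate 2 the calls of higher members were lost, as were nearly all those of other genes. Each of these fits leaves OSCA-32 a lone library. The median log2 difference of the members was then 0.45 and 0.46, beside 0.06 for all genes in both fits. The members' median was 0.48 and 0.43 without OS-2 replicates 1 and 2, and 0.41 and 0.48 without OSCA-78 replicates 2 and 3. It was 0.45 without OSCA-8 replicate 1. For all genes the median was 0.12, 0.08, 0.09, 0.10 and 0.09 in these fits, in the same order. The number of members called moved in either direction in these fits, each of which leaves a line with a lone library. Both OSCA-32 libraries were of the low kind for dominant genes, so within OSCA-32 line and kind cannot be told apart.

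The other lines stood apart in few members. In OS-1 edgeR called 0 members, beside 0.0133% of all genes higher and 0.232% lower. At an unadjusted p under 0.05 in the same edgeR contrast stood 36 members (18%, beside 12.5% of all genes). Limma voom called 0 members in OS-1, beside 0% of all genes higher and 0.345% lower. In OSCA-78 edgeR called 1 member higher and 1 lower, beside 0.126% and 0.152% of all genes. In OSCA-8 it called 1 higher and 0 lower, beside 0.0796% and 0.0398%. ENSCAFG00000015602 was both the member lower in OSCA-78 (edgeR adjusted p = 0.000678) and the member higher in OSCA-8 (0.0108). It was also among the members higher in OSCA-32 (edgeR adjusted p = 0.0120). Its 0 in OSCA-78 enters the mean of the other lines for both OSCA-8 and OSCA-32. The median log2 difference of the members was 0.37 in OS-1, 0.28 in OSCA-78 and 0.02 in OSCA-8, beside 0.12, 0.09 and 0.05 for all genes. OS-2 is part of the mean of the other lines in each of these contrasts. Without the OS-2 line the members' medians were 0.12, 0.02 and -0.19 in the same order, beside 0.07, 0.03 and -0.01 for all genes. With total counts, 96 members were higher in OS-1, beside 17.4% of all genes, and 18 in OSCA-78, beside 3.57%.

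**Figure D3:**
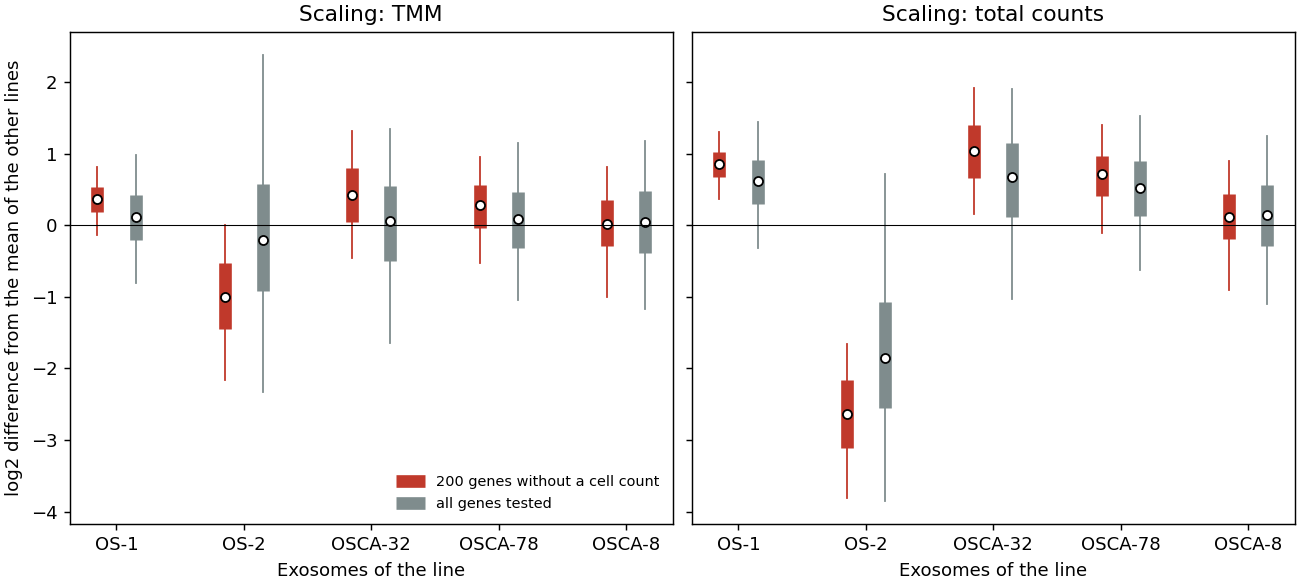
log2 difference of the exosomes of each line from the mean of the other 4 lines for the 200 genes and for all 15083 genes tested, with TMM scaling (left) and total counts (right). Points are medians, thick bars the middle 50% and thin lines the middle 90% of genes, and in OS-2 the median of the 200 genes lies 0.79 below that of all genes, a gap that scaling leaves nearly as it is.

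Within 1 kind of library, few members differed between lines, but both sets below leave out OS-2. Over the 10 libraries without OS-2, edgeR called 1 member, beside 0.117% of all genes. Among the 5 libraries of the low kind (OS-1, OSCA-32 and OSCA-78), edgeR called 6 members, beside 2.72% of all genes. Among the 5 of the middle kind (OS-1, OSCA-78 and OSCA-8), it called 3, beside 1.34%. Calls within a kind were thus not fewer than over all libraries without OS-2. Each of these sets was chosen after seeing the data and holds 1 or 2 libraries per line.

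ENSCAFG00000012146 and ENSCAFG00000009037 were the members with the highest median exosome level, at 191.5 and 190.6 CPM. For ENSCAFG00000012146 the OS-1 libraries stood at 204.6, 208.3, 192.3 and 190.6 CPM, and those of OS-2 at 58.2 and 57.3 CPM. Its level was 158.5 and 209.9 CPM in OSCA-32, 146.1 and 255.0 CPM in OSCA-78, and 194.3 and 164.2 CPM in OSCA-8. The 10 libraries outside OS-2 overlapped between lines, and OS-2 lay below them all. With TMM scaling it did not pass the test between lines (edgeR adjusted p = 0.891), and its log2 difference in OS-2 was -0.10 (SE 0.29).

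ENSCAFG00000009037 stood at 193.0, 239.3, 188.2 and 147.5 CPM in OS-1 and at 58.2 and 46.3 CPM in OS-2. It was at 195.1 and 204.9 CPM in OSCA-32, 195.9 and 198.6 CPM in OSCA-78, and 94.6 and 153.3 CPM in OSCA-8. OS-2 was again lowest, and one OSCA-8 library lay below the rest of the other lines. Its test between lines gave an edgeR adjusted p of 0.815, with a log2 difference in OS-2 of -0.13 (SE 0.31). With TMM scaling the difference of both genes in OS-2 was thus smaller than its SE.

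The 2 members with the smallest p between lines differed in which line they were low in. ENSCAFG00000015602, ranked 133 by level, had no count in either OSCA-78 exosome library. It stood at 34.7, 28.2, 71.1 and 77.2 CPM in OS-1, 10.4 and 8.82 CPM in OS-2, 80.5 and 81.5 CPM in OSCA-32, and 76.7 and 87.6 CPM in OSCA-8. OSCA-78 lay below all other libraries, and OS-2, with 5 and 4 counts, below the remaining ones.

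With 3 counts over both OSCA-78 libraries as the limit (4.11 CPM), ENSCAFG00000015602 was at least 13.7-fold lower there than the mean of the other line means. Against OS-2 alone it was at least 2.34-fold lower. The edgeR adjusted p between lines was 1.89e-05, and it ran from 1.03e-09 to 0.00602 over the alternatives, the highest without the OS-2 line. It was the single member called in the test between lines without OS-2. In the contrasts of single lines without OS-2, 1 member was higher and 3 lower in OSCA-8, beside 0.816% and 0.302% of all genes. In OSCA-78, 0 members were higher and 1 lower, beside 0.0411% and 0.0548% of all genes. The 2 zero counts of ENSCAFG00000015602 lay in OSCA-78 replicate 2, of the middle kind, and replicate 3, of the low kind. OSCA-78 cells had no count of it either, as the choice of members required.

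ENSCAFG00000010194, ranked 32, was highest in OSCA-32 and lowest in OS-2. It stood at 204.9 and 202.5 CPM in OSCA-32, above all other libraries, and at 14.5 and 8.82 CPM in OS-2, below all others. In OS-1 it was at 104.2, 92.9, 152.6 and 147.5 CPM, with the higher values in replicates 3 and 4. In OSCA-78 it was at 28.0 CPM in replicate 2 and 88.3 CPM in replicate 3, and in OSCA-8 at 89.5 and 87.6 CPM. Between lines the edgeR adjusted p was 0.00180, the log2 difference was 1.35 (SE 0.28) in OSCA-32 and -1.56 (SE 0.44) in OS-2.

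**Figure D4:**
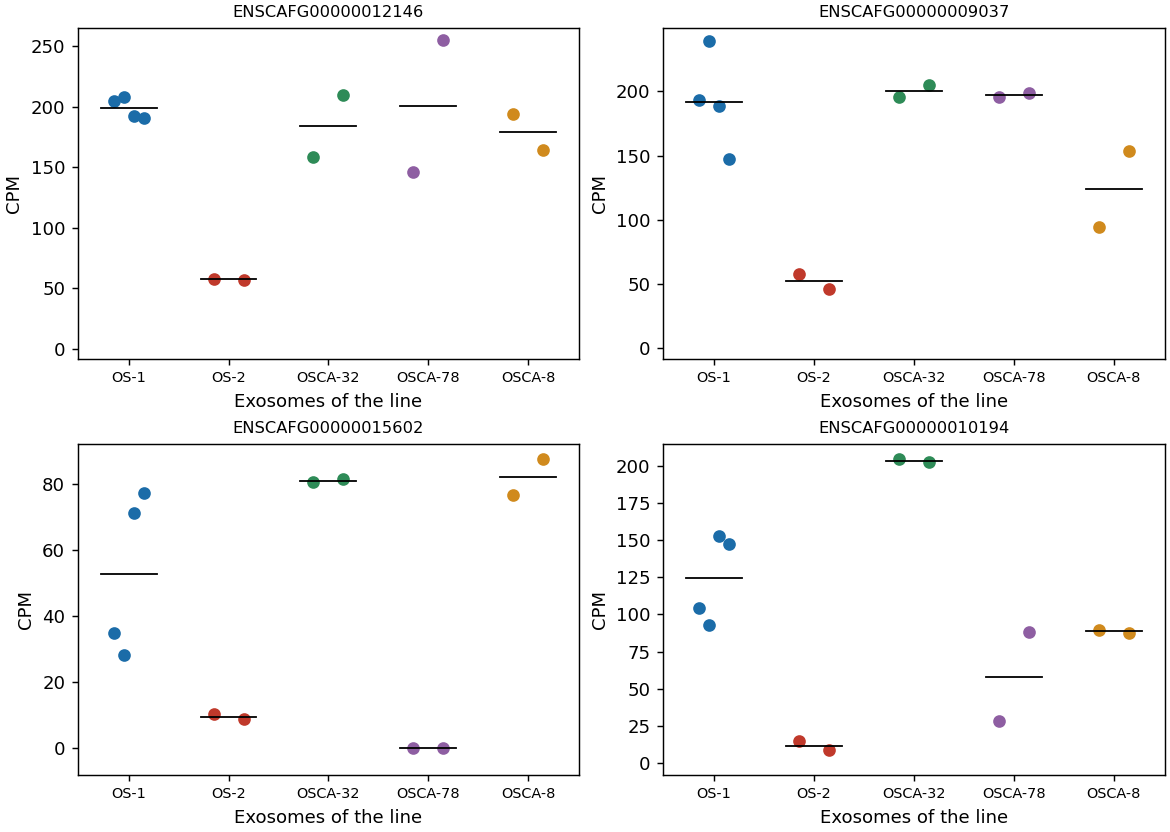
CPM of the 4 genes given by identifier in each exosome library (points) with the mean of each line (bars). ENSCAFG00000015602 is at 0 in both OSCA-78 libraries, and ENSCAFG00000010194 is highest in both OSCA-32 libraries.

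Single libraries with a level far above a member's median were uncommon. The highest library of a member was less than 2 times its median for 149 members, 2 to 3 times for 41 and at least 3 times for 10. Of those 10, the highest library was OS-1 replicate 3 for 3 members, OS-1 replicate 4 for 1, OSCA-32 replicate 1 for 3 and OSCA-78 replicate 3 for 3. All 4 libraries were of the low kind for dominant genes.

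The zeros in cells were read again in libraries that the choice did not use. A list of 200 genes was chosen by the same rule on the 4 cell libraries of letter A and then read in the 4 of letter B. Of that list, 70 genes (35%) had a count in letter B, 34 of them with 1 to 3 counts and 36 with more. Their counts summed to 1181 among 44294389, and 1 gene held 432 of them. Averaged over the list this is 0.133 CPM per gene, while each gene of the list had a median exosome level of at least 53.2 CPM. Chosen on letter B and read in letter A, 76 of 200 genes had a count, 342 in all among 47298484, or 0.0362 CPM per gene. A zero in 4 cell libraries thus often became a low count in 4 more, and the highest level reached was 9.75 CPM.

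For comparison, of all 6613 genes at 0 in letter A, 845 (12.8%) had a count in letter B, and of the 6759 at 0 in letter B, 991 (14.7%) had one in letter A.

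The list was also chosen without 1 line, cells and exosomes alike, and then read in that line. The number of the 200 genes with a cell count in the line left out was 24 for OS-1, 27 for OS-2, 34 for OSCA-78 and 43 for OSCA-8. The highest pooled level among them was 0.433, 5.51, 1.16 and 0.537 CPM in these lines. In exosomes of the line left out, 199 of 200 genes were detected in each of the 4 OS-1 libraries, beside 1786 of the 5841 other genes without a cell count. Detection in both libraries was 186 of 200 for OS-2, 199 for OSCA-32, 199 for OSCA-78 and 200 for OSCA-8. The other genes without a cell count were detected in both for 864 of 5876, 2898 of 5568, 2642 of 5984 and 2370 of 5995, in the same order. The median exosome level of the list in the line left out was 75.6 CPM for OS-1, 76.8 for OSCA-32, 72.0 for OSCA-78 and 54.6 for OSCA-8, but 11.7 CPM for OS-2. Genes picked without a line were thus found in its exosomes, at a lower level in OS-2.

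Per line, the members' zeros in cells allowed up to 0.163 CPM in OS-1, 0.125 in OS-2, 0.120 in OSCA-78 and 0.124 in OSCA-8, with 3 counts over both cell libraries. The median member stood at 73.7 CPM in pooled OS-1 exosomes, at least 453-fold above that limit, and at 69.2 CPM in OSCA-78, at least 577-fold. In OSCA-8 it was at 50.2 CPM and at least 405-fold higher, and in OS-2 at 11.8 CPM and at least 93.9-fold higher. These bounds again follow from how the members were chosen. In OS-2 exosomes 6 members had 3 counts or fewer over both libraries, and in OSCA-78 exosomes 1 had, so no fold is given for them.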

How the data were processed

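The deposited file holds raw counts, whole numbers per Ensembl gene identifier, as the authors made them. Library preparation used a SMARTer Stranded Total RNA-seq Kit for low input, per the labels' protocols. Of tools, the submitters' processing notes list kallisto 0.43.0, Trimmomatic 0.33.0 and FastQC 0.11.5 without saying which step each served. How reads were counted, and with which strand setting, is not given in the sources used here. Counts of similar, overlapping or antisense genes are uncertain for that reason. A further 1 column had no sample label and stayed out.

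Members and tests were chosen with earlier results of these data known. CPM used column totals. Lines were compared over 12 exosome libraries by robust quasi-likelihood F tests of edgeR 4.0.16 in R 4.3.3, on counts scaled by TMM and filtered by filterByExpr at a minimum count of 10, and p was adjusted (Benjamini-Hochberg) over 15083 genes with 0.05 as the threshold. A standard error is the log2 difference over the root of F. The fit was tested on simulated data. Replicates differed by more than counting error (chi-square per degree of freedom at least 1.79), so each library counted once. Alternatives included DESeq2 1.42.0 and voom of limma 3.58.1. Without gene names, the rule for named genes gave the 2 members with the highest median CPM and the 2 with the smallest p. Gene classes and cell type markers were not analysed here.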

Additional observations from a re-analysis of the deposited data

How the results depend on the processing

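Low counts of members limit these results most in OS-2, where the median member had 6 and 4 counts. Total counts of the OS-2 exosome libraries were not low, at 481487 and 453481. Without genes above 1% of any library in the denominator, the members' share was 1.41% and 1.54% for OSCA-8, 1.64% for OSCA-78 replicate 2, 0.670% and 0.592% for OS-2 and 1.63% and 1.70% for replicates 1 and 2 of OS-1, and stayed within the interval in the other 5 libraries. Of the counts of genes without a cell count, members took 26.5% and 27.3% for OSCA-8, 27.1% and 25.2% for OSCA-78, 27.2% and 26.6% for OSCA-32, 21.7% and 21.0% for OS-2 and 27.6%, 28.4%, 26.9% and 27.3% for OS-1. The list itself shared 187 to 192 members with that chosen without any 1 exosome library. It shared 184 without both OS-2 libraries, 176 with lines weighted equally, 185 with CPM free of dominant genes and 122 when up to 3 cell counts were allowed, which let more genes in.

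The count of 38 members that differed between lines became 197 with total counts, 25 with DESeq2, 1 without the OS-2 line, 22 without the OSCA-32 line, and 6 and 3 within the low and the middle kind of library, 2 alternatives chosen after seeing the data. Leaving out 1 library gave 11 to 44. Members lower in OS-2 numbered 199 with total counts, 67 with upper quartile scaling, 1 with limma voom and 5 to 48 without 1 library. Members higher in OSCA-32 numbered 111 with total counts, 31 without a filter, 11 with limma voom and 0 to 38 without 1 library, and those lower 0 to 1 without 1 library. In OS-1, members higher numbered 96 with total counts, 2 without a filter and 0 to 4 without 1 library. In OSCA-78, members higher numbered 18 with total counts, 2 without a filter, 0 with limma voom and 0 to 2 without 1 library, and those lower 2, 0 and 0 to 1 without a filter, with limma voom and without 1 library. In OSCA-8, members lower numbered 3 without a filter and 0 to 1 without 1 library, and those higher 0 to 1. The sets of low-kind and of middle-kind libraries both leave out OS-2. Shares of all genes moved as well. Between lines they were 63.1% with total counts, 13.6% with DESeq2, 0.117% without OS-2 and 12.6% without OSCA-32. Lower in OS-2 were 69.5% with total counts, 8.98% with upper quartile scaling and 0.391% with limma voom. Higher in OSCA-32 were 26.1% with total counts, 3.43% without a filter and 1.14% with limma voom. Without a filter 0.133% were higher in OS-1, 0.386% higher and 0.374% lower in OSCA-78 and 0.274% lower in OSCA-8. The causes were not tested.

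Libraries of different lines share replicate numbers. Of 17 same-numbered pairs, 2 had deviations from the line mean correlated above 0.1 (range -0.05 to 0.32). Both joined OS-1 with OSCA-78, at replicate 2 (0.32) and replicate 3 (0.28), where the libraries of the 2 lines were of the same kind. Deviations in a line with 2 libraries mirror each other, so the 17 pairs are not independent. The numbers were not taken to pair libraries. With the replicate block 72 members differed between lines, 59 were higher and 3 lower in OSCA-32, and 3 were higher and 3 lower in OSCA-78. Calls rose over all genes as well, to 27.1% between lines and to 12.4% higher and 10.4% lower in OSCA-32. In OSCA-78 they rose to 0.729% of all genes higher and 0.57% lower.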
